A study of Mus musculus with 6 samples.

Results

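The 10 genes described here mark tissue-resident macrophages, the phagocytes that live long term in organs such as the liver, where they are called Kupffer cells. They were chosen by name, as the entries of the count files whose gene symbol is Adgre1, Mertk, Cx3cr1, Timd4, Vsig4, Clec4f, Cd163, Siglec1, Id3 or Nr1h3. All 10 had an entry, among 23282 entries in all. RNA was read by 3' end sequencing in 6 libraries labelled BMOL, a line of mouse liver progenitor cells. Of these, 3 were labelled vector control and 3 were labelled as carrying constructs that express TXNIP, an alpha-arrestin that binds thioredoxin. The labels give the same cell line, liver source and mouse species for both groups. The labels name neither the promoter and sequence of the construct nor the clones or cultures behind each group. The p-values therefore measure only the spread between these libraries, which may be technical.

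Resident macrophages share a core identity, set by the transcription factor PU.1 and the growth factor receptor CSF1R, and add genes that the host tissue imposes. In the liver, signals from endothelial and stellate cells, among them Notch ligands and bone morphogenetic proteins (BMPs), act with the oxysterol receptor LXR-alpha to install the Kupffer cell genes. The members fall into surface receptors of macrophages in several tissues, though not of all macrophages (Adgre1, Cx3cr1, Siglec1, Mertk), receptors that mark Kupffer cells and other embryonically seeded macrophages (Timd4, Vsig4, Clec4f, Cd163), and the nuclear regulators Id3 and Nr1h3.

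Of the 10 members, 5 had no read in any of the 6 libraries, namely Mertk, Timd4, Vsig4, Clec4f and Cd163. Over all entries of the files, 31.5% had no read in any library. Levels are given as CPM, the reads of a gene per 1000000 reads counted in its library. The other 5 members were tested, of which Adgre1, Cx3cr1 and Siglec1 rose in the libraries labelled TXNIP overexpression, Id3 fell and Nr1h3 did not pass. In edgeR's quasi-likelihood test 64.5% of the 12088 tested genes passed an adjusted p of 0.05, 30.6% of them higher and 33.9% lower as shares of the tested genes. The groups did not overlap for 4 of the 5 tested members, and for 70.5% of all tested genes. The members' counts stand close to that background, and 3 of the 5 passed the low-count filter through 1 group only, so the counts carry no weight of their own. The shares of 30.6% higher and 33.9% lower are also the background for every count of listed genes below, and those counts are descriptions only.

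**Figure D1:**
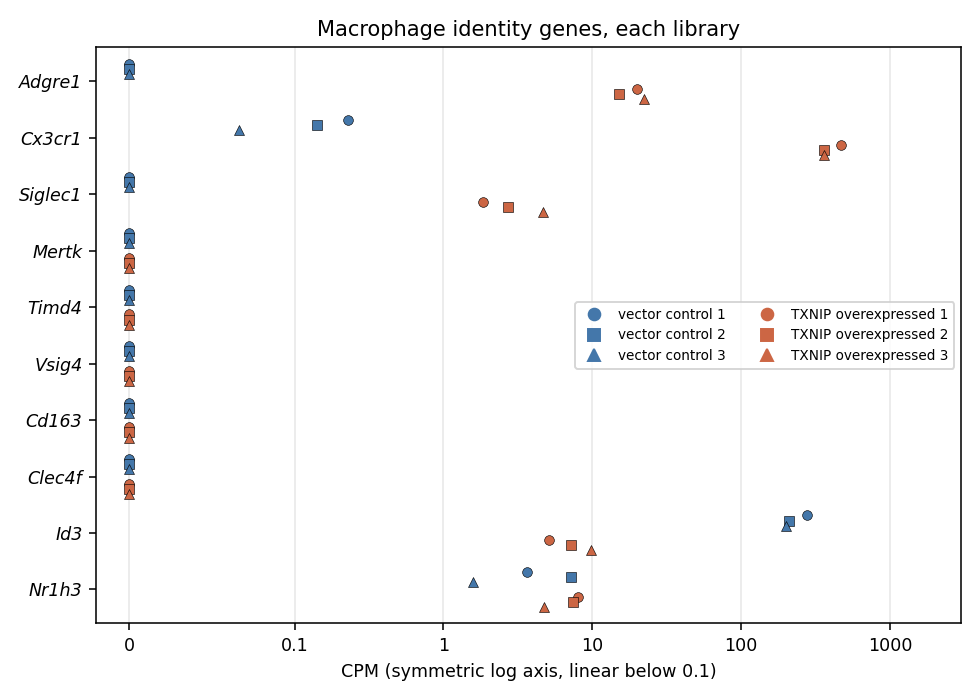
Level of each of the 10 genes in CPM (symmetric log axis that is linear below 0.1), with 1 point per library, blue for vector control and red for TXNIP overexpressed, and marker shape for the replicate number. Adgre1, Cx3cr1 and Siglec1 lie to the right in the red libraries, Id3 lies to the right in the blue ones, Nr1h3 overlaps, and 5 genes sit at 0 throughout.

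The libraries of the groups differ far beyond these genes, and the depth limits what an absence means. Totals ran from 8725624 to 15119775 counts, and 3 reads in a library correspond to 0.198 to 0.344 CPM. Txnip, the gene named in the labels, had 39.7, 9.84 and 10.9 CPM in the control libraries, against 209, 291 and 286 CPM in the 3 others. Its log2 fold change was 3.82 ± 0.46 (SE) (edgeR adjusted p = 2.76e-05). The construct's sequence is not given, so its reads and those of the cells' own gene cannot be told apart. With 30.6% of tested genes higher, this rise alone cannot check the labels. Epithelial markers of the labelled progenitor line were read almost only in the controls: the keratin gene Krt18 had 615, 521 and 451 CPM there and 0, 1 and 0 reads in the other libraries. Conversely all 16 tested genes of a 20-gene list of the myeloid core rose, among them the lysozyme gene Lyz2 (0.0220 ± 0.0382 to 1575 ± 504 CPM), the lysosomal marker Cd68 (0.591 ± 0.538 to 724 ± 47.7 CPM), Cd14 (54.6 ± 7.32 to 1390 ± 49.2 CPM) and the growth factor receptor gene Csf1r (28.7 ± 3.32 to 999.9 ± 126 CPM), with a summed level of 198 to 210 CPM in the controls and 6730 to 7734 CPM in the libraries labelled TXNIP overexpression. The leukocyte gene Ptprc had 6, 0 and 0 reads in the controls, so that all of its control reads lay in replicate 1, and 199, 148 and 144 CPM elsewhere. In both groups the library numbered 1 stood apart: its chi-square over genes, divided by the degrees of freedom, was 23.1 to 28.3 against the other two, which gave 6.40 (controls) and 6.51 between themselves. In bulk RNA, more cells of a type and more RNA per cell cannot be told apart, which holds for every level below.

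Promoter windows of 300 bases, from 250 before to 50 after the annotated start, are shown for 4 members because they represent the patterns seen: Cx3cr1 rose, Id3 fell, Nr1h3 overlapped between the groups and Vsig4 had no read. The windows are from RefSeq (build GRCm38.p6), written 5′ to 3′ along the gene. Windows were found for 8 of the 10 members, all but Adgre1 and Siglec1. Capitals mark GAGGAA, a core recognised by PU.1 and other ETS factors, on either strand (TTCCTC is the same core on the opposite strand).
Cx3cr1 (chr9:120068247-120068546, minus strand): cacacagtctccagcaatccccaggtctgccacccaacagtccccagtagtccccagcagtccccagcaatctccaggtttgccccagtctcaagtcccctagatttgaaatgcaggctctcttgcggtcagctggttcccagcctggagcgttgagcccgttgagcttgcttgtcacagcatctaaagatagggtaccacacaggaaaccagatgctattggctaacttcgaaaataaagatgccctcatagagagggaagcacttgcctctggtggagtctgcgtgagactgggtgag
Id3 (chr4:136143572-136143871, plus strand): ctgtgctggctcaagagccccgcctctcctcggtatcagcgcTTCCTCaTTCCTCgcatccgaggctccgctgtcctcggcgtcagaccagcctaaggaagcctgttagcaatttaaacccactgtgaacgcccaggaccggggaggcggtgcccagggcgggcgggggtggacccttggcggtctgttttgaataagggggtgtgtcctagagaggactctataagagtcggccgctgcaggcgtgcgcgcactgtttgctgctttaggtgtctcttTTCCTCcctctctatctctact
Nr1h3 (chr2:91195067-91195366, minus strand): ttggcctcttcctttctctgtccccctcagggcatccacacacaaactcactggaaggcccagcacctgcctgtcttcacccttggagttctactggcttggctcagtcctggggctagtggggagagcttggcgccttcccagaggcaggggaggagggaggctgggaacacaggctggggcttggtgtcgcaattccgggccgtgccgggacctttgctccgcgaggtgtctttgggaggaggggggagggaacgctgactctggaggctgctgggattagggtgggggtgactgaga
Vsig4 (chrX:96293389-96293688, minus strand): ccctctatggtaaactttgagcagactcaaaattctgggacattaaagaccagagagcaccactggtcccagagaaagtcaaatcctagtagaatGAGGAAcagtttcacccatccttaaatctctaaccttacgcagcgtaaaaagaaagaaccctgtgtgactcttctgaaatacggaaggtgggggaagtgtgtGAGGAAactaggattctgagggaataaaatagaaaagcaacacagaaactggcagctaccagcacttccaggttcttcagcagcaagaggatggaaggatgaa
The Vsig4 window held GAGGAA at 2 places, starting 155 and 53 bases before the start, although the gene had no read. The Id3 window held 3 matches, all on the opposite strand, at -208, -201 and 29 from the start. The windows of Cx3cr1, Mertk, Timd4, Clec4f and Cd163 and the Nr1h3 window shown held none, while a second annotated Nr1h3 start had 1. Both Nr1h3 windows lie at starts inside the annotated gene span. Of all 32851 windows of this length, 28.3% held the core on either strand. The AP-1 core TGANTCA, present in 7.81% of the windows, was in none of the members' windows. A match is a description of the letters and not evidence of binding, and 3' counts do not tell which start a transcript used.

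Cx3cr1 (chr9:120048683-120068296, GRCm38.p6, protein-coding), the receptor for the chemokine fractalkine and a marker of microglia, some resident macrophages and patrolling monocytes, was the member with the most reads in the libraries labelled TXNIP overexpression. It had 2, 2 and 1 reads in the controls (0.228, 0.142 and 0.0661 CPM) and 4100, 3833 and 4039 reads in the others (469.9, 361 and 361 CPM). The groups were far apart, with replicate 1 the highest in both. The means were 0.145 ± 0.0811 and 398 ± 62.7 CPM (SD, n = 3 each), and the pooled counts stood in a ratio of 2983 (exact 95% interval 1278 to 9189, counting error only). On the log2 scale the fitted difference was 11.51 ± 0.28 (SE) (edgeR adjusted p = 1.81e-11), and it lay between 11.13 and 11.83 with any library left out. The annotated long non-coding RNA Gm33858 shares 5035 bases with Cx3cr1 and has no entry in the files, and the use of strand in the counting is not stated.

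The ligand went the other way. Cx3cl1, which encodes fractalkine, a chemokine tethered to the membrane of epithelial and endothelial cells, had 86.3, 54.9 and 42.8 CPM in control libraries but not a read in the others, at least 583-fold lower (edgeR adjusted p = 1.20e-07). No library held more than 2 reads of the receptor together with reads of the ligand. Of the proteases that release fractalkine from the membrane, Adam17 rose from 95.8 ± 13.8 to 483 ± 49.1 CPM, a log2 fold change of 2.41 ± 0.14 (SE). Adam10 ran from 69.0 to 99.2 CPM in the controls and from 72.2 to 93.8 CPM in the others and missed the threshold (log2 fold change 0.16, adjusted p = 0.401 in edgeR). Without both libraries numbered 1, Adam10 passed as higher, at 0.43 (adjusted p = 0.00134). The G protein gene Gnai3 did not pass (96.6 to 115 CPM and 90.2 to 118 CPM, adjusted p = 0.851 in edgeR). The inhibitory G protein gene Gnai2, through which such chemokine receptors signal, rose slightly, from 682 ± 9.35 to 818 ± 68.1 CPM (adjusted p = 0.0221 in edgeR). That call was lost with library size alone as the scaling (adjusted p = 0.0573) and without control replicate 2 (0.0733), control replicate 3 (0.0646) or replicates 2 (0.0781) and 3 (0.0625) labelled TXNIP overexpression.

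Adgre1 (chr17:57358581-57483529, protein-coding) encodes F4/80, the adhesion G protein-coupled receptor by which mouse macrophages are most often identified. No control library held a read of it, and there were 175, 160 and 248 reads in the libraries labelled TXNIP overexpression, or 20.1, 15.1 and 22.2 CPM. The groups did not overlap, and the 3 libraries lay within 1.5-fold of each other. Against a floor of 3 reads over the control group, the level of 19.1 ± 3.65 CPM (SD, n = 3) was at least 242-fold higher (edgeR adjusted p = 1.43e-07). The pseudogenes Gm18069 and Gm20243, annotated within its span, have no entry in the files. Its relative Adgre5, which encodes the leukocyte activation antigen CD97 and is also made by epithelia, moved in the opposite direction, from 106 ± 31.0 to 29.8 ± 7.13 CPM (log2 fold change -1.75 ± 0.22 (SE), adjusted p = 2.79e-05 in edgeR). Adgre4 had no read in any library. Among 16 further adhesion receptors, Adgre5 included, the test covered 7: 5 were lower, 1 was higher and Adgrl1 (17.7 to 46.9 CPM and 33.6 to 42.1 CPM) did not pass (log2 fold change 0.44, adjusted p = 0.206 in edgeR). Adgrl1 passed as higher without control replicate 1 (0.87, adjusted p = 0.00464), without both libraries numbered 1 (0.80, adjusted p = 0.00107) and with the replicate number as a block (0.53, adjusted p = 0.0490). Adgra2 had 39.1 to 40.8 CPM in the controls and 1 read in the others. Adgrg1, an adhesion receptor gene of epithelial and neural progenitors, had 116 to 168 CPM in the controls and 1 read in the others.

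Siglec1 (chr2:131067801-131086778, protein-coding) encodes sialoadhesin, or CD169, a receptor for sialylated glycans on lymph node, marrow and other resident macrophages. It had no control read and 16, 29 and 52 reads in the libraries labelled TXNIP overexpression (1.83, 2.73 and 4.65 CPM). All 3 lay above the controls, though at a low level and with a spread of more than 2-fold between the lowest and the highest. Against the floor its level was at least 40.3-fold higher (edgeR adjusted p = 1.03e-04). Under the filter of 5 CPM in 3 libraries it was not tested. Among its relatives the inhibitory receptor gene Cd33 had no control read and 7.45, 6.79 and 12.5 CPM in the others, at least 115-fold higher (adjusted p = 3.75e-06 in edgeR). Siglece, an inhibitory receptor gene of myeloid cells, had no control read and 1.60, 1.60 and 2.15 CPM, at least 22.8-fold higher. Siglecg, known from B cells, showed the reverse, with 2.62, 3.04 and 5.16 CPM in control libraries but not a read in the others, at least 38.5-fold lower. Of 8 relatives listed, these 3 were tested. Cd22 and Siglech had no read, Siglecf and Siglec15 had 1 read each, and Mag had 1, 28 and 4 reads in the libraries labelled TXNIP overexpression only.

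Mertk (chr2:128698915-128803162, protein-coding) encodes a receptor tyrosine kinase that lets macrophages take up apoptotic cells, and together with CD64 it is used to define mature tissue macrophages. It had no read in any library, and the limit of 3 reads over a group stands at 0.0789 CPM for the controls and 0.0983 CPM for the others. Its relatives of the TAM group, the receptor tyrosine kinases Tyro3 and Axl, were both lower in the libraries that held Adgre1 reads. Axl had 354, 516 and 496 CPM in the control libraries, against 1.38, 0.660 and 2.68 CPM in the 3 others, a log2 fold change of -8.08 ± 0.34 (SE) (edgeR adjusted p = 2.85e-09). Without replicate 3 labelled TXNIP overexpression, which held 30 of its 49 reads in that group, the fold change was -8.75. Tyro3 fell from 7.79 ± 1.95 to 0.573 ± 0.201 CPM (log2 fold change -3.64 ± 0.47 (SE), adjusted p = 2.54e-05 in edgeR).

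The ligands that bridge TAM receptors to dying cells were lower in the same libraries. Gas6 had 351, 176 and 178 CPM in the control libraries, against 0.344, 2.36 and 0.716 CPM in the 3 others, a log2 fold change of -7.56 ± 0.47 (SE) (edgeR adjusted p = 1.43e-07). It was -8.62 without replicate 2 labelled TXNIP overexpression, which held 25 of the 36 reads, and -6.81 without both libraries numbered 1. Pros1, the protein S gene, fell from 13.8 ± 7.82 to 4.27 ± 0.898 CPM (adjusted p = 0.00318 in edgeR). Of 23 genes listed for the uptake of apoptotic cells, 17 were tested, of which 6 rose, 9 fell and 2 did not pass, with a median log2 fold change of -0.73 against -0.04 over all tested genes. Those that rose included the receptor genes Lrp1 (2.50 ± 1.02 to 92.0 ± 12.4 CPM) and Cd36 (no control read, 41.5 to 50.2 CPM) and the engulfment genes Dock2 (no control read, 61.9 to 79.4 CPM) and Elmo1 (6.05 to 7.61 CPM in the controls, 26.9 to 48.8 CPM). Those that fell included the engulfment gene Dock1 (31.1 ± 3.50 to 17.9 ± 2.40 CPM). The integrin genes Itgav (53.8 ± 3.16 to 28.2 ± 5.95 CPM), Itgb5 (70.8 ± 25.9 to 14.4 ± 2.85 CPM) and Itgb3 (10.8 ± 3.67 to 0.149 ± 0.258 CPM) also fell. The bridging protein gene Mfge8 had 407 ± 66.8 and 392 ± 35.6 CPM and missed the threshold (log2 fold change 0.01, adjusted p = 0.941 in edgeR). Without both libraries numbered 1 it passed with the opposite sign, at -0.21 (adjusted p = 0.00969).

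Timd4 (chr11:46810786-46844333, protein-coding) encodes a receptor for phosphatidylserine on Kupffer cells and other long-lived resident macrophages, and it had no read in any library. Its relatives of the TIM family were split between the groups. Havcr1, or TIM-1, a gene of injured kidney epithelium and lymphocytes, had 2.05, 5.59 and 4.70 CPM in control libraries but not a read in the others, at least 44.9-fold lower (edgeR adjusted p = 9.18e-05). Havcr2, or TIM-3, found on exhausted T cells and on myeloid cells, had 0, 8 and 0 reads in the controls and 72, 66 and 91 in the others, and its pooled ratio was 35.7 (exact 95% interval 17.8 to 83.6; edgeR adjusted p = 1.09e-04). All 8 control reads of Havcr2 lay in control replicate 2, and the fitted log2 fold change was 5.18 with that library and 9.39 without it, where the controls had no read. Timd2 had 0, 12 and 10 control reads, none in the others, and was not tested.

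**Figure D2:**
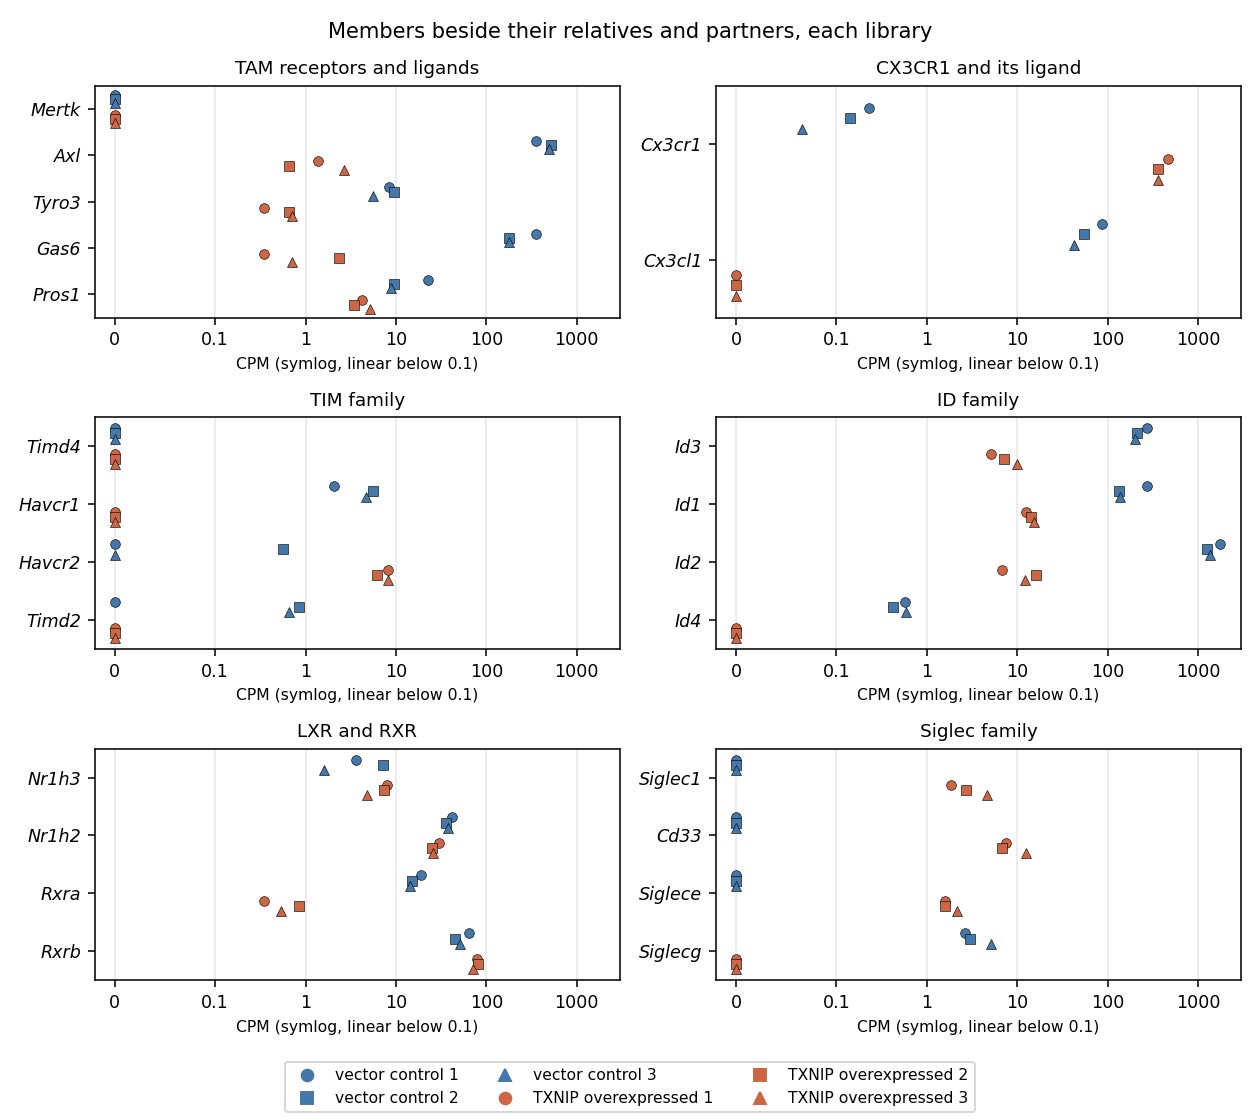
CPM (symmetric log axis, linear below 0.1) of members and of their relatives or partners in each of 6 libraries, blue for vector control, red for TXNIP overexpressed, with marker shape for the replicate number. Cx3cr1 and its ligand Cx3cl1 occupy opposite libraries, the TAM, Id1, Id2 and Id3 rows lie to the left in red wherever they were detected, and Nr1h3 is the member whose groups overlap.

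Vsig4 (chrX:96247201-96293438), Clec4f (chr6:83644542-83656116) and Cd163 (chr6:124304636-124330529), all protein-coding, had no read in any library. Vsig4 encodes CRIg, a complement receptor that captures opsonised bacteria in the liver, Clec4f a galactose-binding lectin used as a marker of mouse Kupffer cells, and Cd163 the scavenger receptor for haemoglobin bound to haptoglobin. With Timd4 and Mertk, each of these stood under the limit of 3 reads, or 0.0438 CPM, over the 6 libraries pooled. Cd163l1, a relative of Cd163, had no read either. Among 15 further Kupffer cell genes, Marco, Spic, C6 and Cdh5 had no read, Cd5l had 10 reads, Clec1b 8 and Folr2 2, all in the libraries labelled TXNIP overexpression. Of the 7 tested, 3 rose, 2 fell and 2 did not pass. Among those that rose, Slc11a1, the phagosomal metal transporter gene, went from 2.46 ± 0.966 to 194 ± 21.9 CPM and Irf7, an interferon regulator gene, from 0.576 ± 0.554 to 92.2 ± 5.07 CPM. Xlr, a member of a family of X-linked near-copies between which reads could be split, rose from 0.474 ± 0.463 to 60.7 ± 25.2 CPM. The 2 that fell, Pcolce2 (31.7 ± 6.45 CPM) and Paqr9 (2.70 ± 1.30 CPM), were read in the controls only. Their drops were bounded at 332-fold and 29.7-fold or more (adjusted p = 4.88e-08 and 2.45e-04 in edgeR). Slc40a1, the iron exporter gene ferroportin, had 43.3 ± 9.89 and 35.1 ± 0.974 CPM and missed the threshold (adjusted p = 0.278 in edgeR).

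Id3 (chr4:136143822-136145392, protein-coding) encodes an inhibitor of DNA binding, which holds E proteins off their sites, is induced by BMP signals in many cells and is needed for Kupffer cell development. It was the 1 tested member that fell. Its counts were 2411, 2972 and 3035 in the controls (275, 210.4 and 201 CPM) and 45, 76 and 110 in the others (5.16, 7.16 and 9.84 CPM). The lowest control stood more than 20-fold above the highest of the others. The means were 229 ± 40.4 and 7.39 ± 2.35 CPM (SD, n = 3 each), a 31.0-fold difference, and the log2 fold change was -4.86 ± 0.22 (SE) (edgeR adjusted p = 2.24e-09). It ranged from -5.11 to -4.54 over all 16 alternatives. Both libraries numbered 1 lay at an extreme, the highest of the controls and the lowest of the others, and without them the value was -4.54.

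The other ID genes and much of the BMP pathway were lower in the same libraries. Id1 fell from 180.5 ± 77.2 to 14.1 ± 1.57 CPM (log2 fold change -3.60 ± 0.27 (SE), adjusted p = 4.32e-07 in edgeR). Id2, which is also needed for several lymphoid lineages, had 1736, 1258 and 1346 CPM in the control libraries, against 6.88, 16.1 and 12.3 CPM in the 3 others, a log2 fold change of -6.86 ± 0.28 (SE). Id4 had 20 control reads, none in the others, and was not tested. Among the E proteins, the partners that ID proteins hold inactive, Tcf3 fell from 69.2 ± 5.16 to 32.5 ± 3.67 CPM, Tcf4 rose from 54.7 ± 2.83 to 121 ± 22.2 CPM, and Tcf12 (85.7 to 102 CPM and 98.6 to 121 CPM) did not pass (edgeR adjusted p = 0.0831). Without replicate 3 labelled TXNIP overexpression, Tcf12 passed as higher (0.40, adjusted p = 0.0446). Among 23 ID, E protein and BMP genes the test covered 18: 12 fell, 3 rose and 3 missed the threshold, against 33.9% lower and 30.6% higher over all tested genes. Without replicate 3 labelled TXNIP overexpression 11 of them fell and 4 rose. The median log2 fold change of the 18 was -0.97, against -0.04 over all.

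Of the BMP ligands, Bmp4 (37.8 ± 9.42 CPM) and Bmp2 (13.6 ± 2.80 CPM) were read in the controls and had no read in the others, at least 367-fold and 133-fold lower. The inhibitory Smad genes that BMP signals switch on, Smad6 (25.1 ± 4.97 to 4.85 ± 0.910 CPM) and Smad7 (19.4 ± 3.22 to 2.30 ± 0.870 CPM), both fell. The receptor genes went both ways: Bmpr2 fell from 30.5 ± 0.392 to 15.4 ± 2.47 CPM, Bmpr1a rose from 29.7 ± 3.29 to 61.9 ± 7.80 CPM, and Acvrl1, the receptor through which BMP9 and BMP10 act on Kupffer cells, had no control read and 4.70, 2.92 and 5.19 CPM in the others, at least 54.0-fold higher. Gdf2, the gene of BMP9, had no read.

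Nr1h3 (chr2:91184061-91202829, protein-coding) encodes LXR-alpha, a nuclear receptor for oxysterols that controls cholesterol export and helps keep Kupffer cell identity. It had 32, 101 and 24 reads in the controls (3.65, 7.15 and 1.59 CPM) and 70, 79 and 53 in the others (8.02, 7.45 and 4.74 CPM). The groups overlapped, with control replicate 2 above replicate 3 of the other group. The means were 4.13 ± 2.81 and 6.74 ± 1.75 CPM (SD, n = 3 each) and the log2 fold change was 0.77 ± 0.49 (SE), which did not pass (edgeR adjusted p = 0.186). Without control replicate 2 the value was 1.47 and passed (adjusted p = 0.0254), while without control replicate 3 it was 0.37 (adjusted p = 0.497). Acp2 shares 18 bases with it at its 5' end, away from the end that is read, and the small nuclear RNA gene Gm23390, which has no entry in the files, lies within it.

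**Figure D3:**
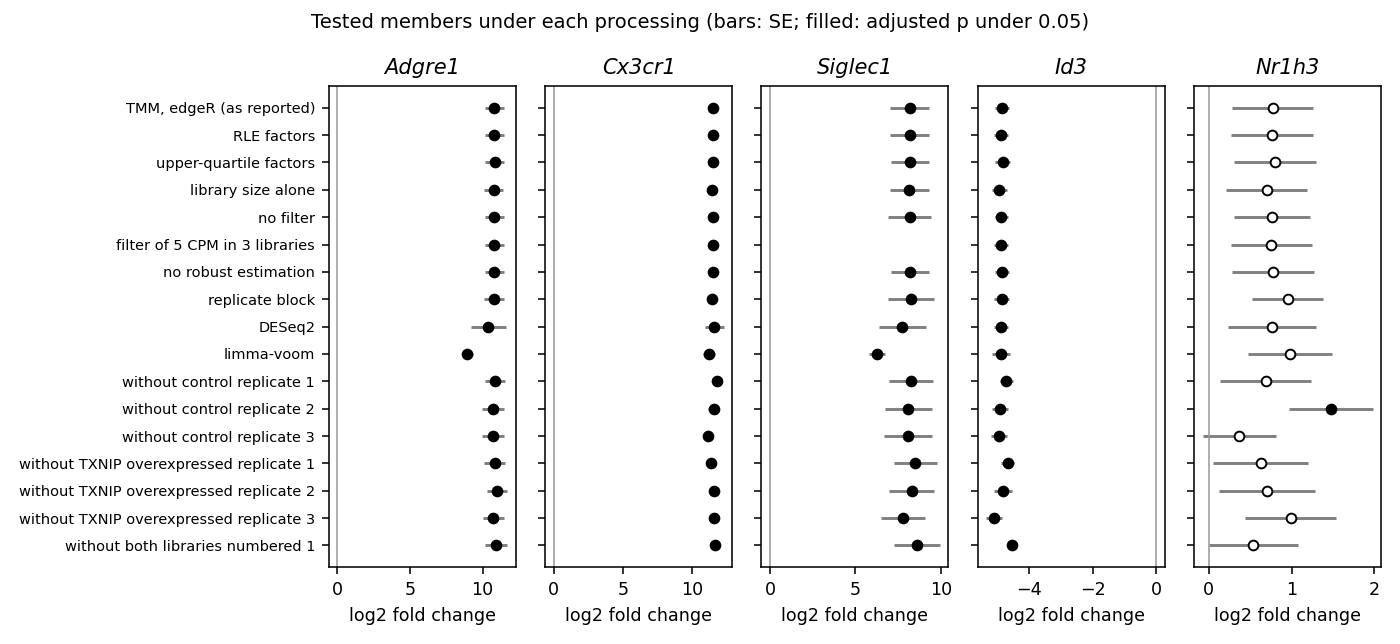
Log2 fold change (TXNIP overexpressed minus vector control) of the 5 tested members under each processing, with bars for the standard error and filled points where the adjusted p was under 0.05; each panel has its own axis. Adgre1, Cx3cr1, Siglec1 and Id3 keep their side of 0 with filled points wherever they were tested, and Nr1h3 is filled only without control replicate 2.

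LXR acts as a pair with a retinoid X receptor, and Rxra and Rxrb changed in opposite directions. Rxra fell from 16.1 ± 2.30 to 0.576 ± 0.255 CPM (log2 fold change -4.68 ± 0.38 (SE), adjusted p = 3.88e-07 in edgeR). Rxrb rose from 53.6 ± 9.58 to 76.6 ± 5.09 CPM (log2 fold change 0.59 ± 0.15 (SE), adjusted p = 0.00474 in edgeR). Nr1h2, which encodes the widely expressed LXR-beta, fell from 38.3 ± 2.88 to 27.0 ± 2.80 CPM (adjusted p = 0.0342 in edgeR). The Nr1h2 call was lost with any 1 control library left out (adjusted p = 0.0690, 0.0536 and 0.0780 without replicates 1, 2 and 3) and without replicate 2 (0.119) or 3 (0.110) labelled TXNIP overexpression.

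Of 20 LXR partners, cofactors and targets listed, 17 were tested, of which 6 rose, 5 fell and 6 did not pass, with a median log2 fold change of 0.22. Among targets with a role in macrophage lipid handling, Lpl, the lipoprotein lipase gene, had no control read and 823, 945 and 982 CPM in the others, at least 11703-fold higher. The cholesterol exporter gene Abcg1 had no control read and 51.1, 68.2 and 78.9 CPM, at least 852-fold higher. Abca1, the other main exporter gene, had no control read and 19, 16 and 8 reads in the others, and the low-count filter left it out of the test. Pltp, the phospholipid transfer protein gene, rose from 107 ± 36.2 to 323 ± 46.3 CPM and Mylip, the ubiquitin ligase gene that degrades the LDL receptor, from 0.0708 to 0.860 CPM in the controls to 7.92 to 8.77 CPM. Of the targets in lipid synthesis, Scd1 fell from 90.1 ± 8.21 to 43.5 ± 4.57 CPM and Scd2 from 1133 ± 249 to 640.1 ± 32.8 CPM. Falls were not limited to synthesis genes. Arl4c, also listed as a target, had 144, 153 and 170 CPM in the controls and 1 read in the others (adjusted p = 6.45e-11 in edgeR). Srebf1 (94.0 ± 8.08 and 73.1 ± 20.6 CPM), the corepressor gene Ncor1 (301 ± 12.2 and 334 ± 67.9 CPM), Lpcat3 (262 ± 15.4 and 212 ± 27.6 CPM) and Apoe (3.08 ± 0.834 and 4.42 ± 1.25 CPM) did not pass, with edgeR adjusted p-values of 0.193, 0.214, 0.127 and 0.243. Without both libraries numbered 1, Lpcat3 passed at -0.20 (adjusted p = 0.0239).

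Regulators known to act beside Id3 and Nr1h3 in Kupffer cells changed in both directions. Of 16 listed, 13 were tested, of which 6 rose and 7 fell, against 30.6% higher and 33.9% lower over all tested genes. Without control replicate 2, or replicate 2 or 3 labelled TXNIP overexpression, 5 of them fell. Without control replicate 1 or 3, 6 fell. Spi1, the gene of PU.1, had 1.71, 1.06 and 1.52 CPM in the control libraries, against 362, 354 and 387 CPM in the 3 others, a log2 fold change of 8.09 ± 0.19 (SE). Rbpj, the nuclear effector of Notch, rose from 46.8 to 53.3 CPM in the controls to 307 to 342 CPM, while Hes1, a gene that Notch switches on, had 199.8, 131 and 119 CPM in the controls and 8 reads in the others. Maf, a transcription factor gene, had 30.6, 26.1 and 30.6 CPM in the controls and 1 read in the others. Irf8, a myeloid lineage factor gene, had no control read and 49.9, 50.3 and 53.6 CPM, at least 651-fold higher, and Zeb2, a repressor gene needed by Kupffer cells, rose from 5.86 ± 0.865 to 91.7 ± 23.1 CPM. Spic, the factor gene of iron-recycling macrophages, had no read, and Tfec had 11 reads, all in the libraries labelled TXNIP overexpression.

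Genes that mark macrophages of other tissues were read in part. For microglia, 2 of 10 genes were tested and P2ry12, P2ry13, Siglech and Gpr34 had no read in any library. Sall1 fell from 18.3 to 28.4 CPM to no read, and Tmem119 had 4 and 10 reads. For alveolar macrophages, 5 of 10 were tested: Atp6v0d2, a proton pump subunit gene, and Fabp4, a lipid chaperone gene, had no control read and 107 to 109 and 26.1 to 30.1 CPM, but the lineage factor gene Pparg fell from 5.32 ± 2.33 to 0.195 ± 0.246 CPM and Ear2 and Chil3 had no read. Fabp5 (141 ± 45.3 and 116 ± 19.3 CPM) did not pass (edgeR adjusted p = 0.435), though it passed as lower without control replicate 1 (-0.47, adjusted p = 0.0169) and without both libraries numbered 1 (-0.34, adjusted p = 0.00121). For peritoneal macrophages, 3 of 10 were tested, of which 1 rose, 1 fell and 1 did not pass. Gata6, their lineage factor gene, fell from 64.7 ± 16.1 to 0.299 ± 0.438 CPM. Icam2, an adhesion molecule gene, had no control read and 5.16, 4.05 and 1.97 CPM in the others, at least 45.7-fold higher (edgeR adjusted p = 7.59e-05), and Selp (1.47 ± 1.27 and 1.75 ± 0.591 CPM) did not pass (edgeR adjusted p = 0.732). Of 6 genes of splenic red pulp macrophages, 4 were tested: Hmox1, the haem-degrading enzyme gene, rose from 21.2 ± 2.67 to 65.1 ± 11.8 CPM, Treml4 had no control read and 3.78, 4.34 and 6.98 CPM, Vcam1 fell from 135 ± 5.83 to 0.539 ± 0.316 CPM and Slc40a1 did not pass, as above.

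Monocyte genes were split in direction. Of 12 listed, 7 were tested, of which 4 rose and 3 fell, against 30.6% higher and 33.9% lower over all tested genes. Itgal, an integrin gene of all leukocytes, had no control read and 35.9 to 43.9 CPM, and Ccr2, the receptor of inflammatory monocytes, no control read and 6.19, 2.92 and 2.33 CPM. Ly6c1 (18.5 to 31.8 CPM) and Plac8 (27.2 to 35.0 CPM) were read in the controls only, Ly6c2 had 46 and 2 reads, and F13a1 had none. Ly6c1 and Ly6c2, like Lyz1 and Lyz2, are near-copies between which reads could be split. Of the complement C1q genes, which most resident macrophages express, C1qa had no read and C1qb and C1qc had 1 read each. Fcgr1, the CD64 gene paired with Mertk to define tissue macrophages, had 5, 10 and 4 reads in the libraries labelled TXNIP overexpression and none in the controls.

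**Figure D4:**
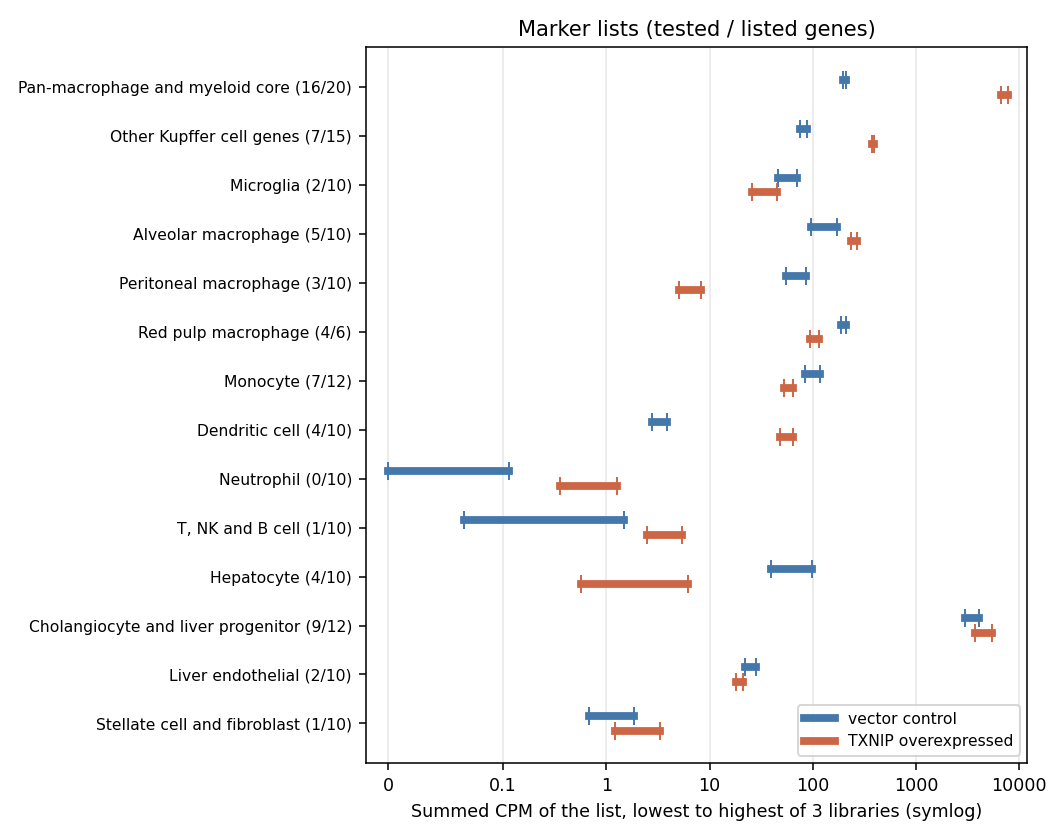
Summed CPM of each marker list (symmetric log axis, linear below 0.1), with a bar from the lowest to the highest of 3 libraries, blue for vector control and red for TXNIP overexpressed, and tested over listed genes in brackets. The myeloid core list lies at 198 to 210 CPM in the controls and at 6730 to 7734 CPM in the others, while neutrophil, lymphocyte and stellate cell lists stay under 6 CPM in both groups. The ductular and progenitor list is drawn with Spp1 included.

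Other cell types that a liver sample could hold were followed by summed marker levels. Dendritic cell genes summed to 2.78 to 3.89 CPM in the controls and 48.3 to 64.6 CPM in the others, with Flt3, Clec9a, Cd209a and Ccr7 at 0. Most of the sum in the libraries labelled TXNIP overexpression was Cd74, given below. Of the 4 tested, 3 rose, while the transcription factor gene Zbtb46 fell (log2 fold change -5.29, adjusted p = 8.46e-05 in edgeR). Neutrophil genes summed to at most 1.26 CPM in any library, with Elane, Mpo, Camp, Ltf, Mmp8 and Retnlg at 0. T, NK and B cell genes summed to 0.0661 to 1.48 CPM in the controls and 2.45 to 5.37 CPM in the others. Cd3e, Cd8a and Ms4a1 were at 0. The 1 tested gene of that list, Lck, passed as higher (log2 fold change 2.60, adjusted p = 0.0101 in edgeR). Its call was lost without replicate 3 labelled TXNIP overexpression (adjusted p = 0.0587). Stellate cell and fibroblast genes summed to 0.684 to 1.84 CPM in the controls and 1.23 to 3.31 CPM in the others. Col1a2, Lrat, Lum and Thy1 were at 0. The 1 tested gene of that list, Acta2, passed as higher (log2 fold change 1.99, adjusted p = 0.0275 in edgeR). Its call was lost under several alternatives, among them no filter (adjusted p = 0.0541) and control replicate 3 left out (0.105). Liver endothelial genes summed to 22.1 to 27.9 CPM in the controls and 18.1 to 21.3 CPM in the others, with Stab2, Lyve1, Clec4g and Cdh5 at 0. Most of that sum was Eng (14.9 to 19.4 CPM and 16.2 to 17.9 CPM), which is also in the BMP list, and 2 of 10 genes were tested. Hepatocyte genes summed to 39.6 to 97.5 CPM in the controls and 0.573 to 6.17 CPM in the others. The ductular and progenitor list, without Spp1, which macrophages also express, summed to 2594 to 3818 CPM in the controls and to 0.0895 to 1.51 CPM in the others. With Spp1 the sums were 2964 to 4131 CPM and 3777 to 5473 CPM, so nearly all of the latter was Spp1. Of the 12 listed genes 9 were tested, of which 8 fell and 1, Spp1, rose. The part that a change in the cells sampled has in the members' differences was not tested.

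The genes nearest to each tested member in profile, by Euclidean distance of log2(CPM + 1) over the 6 libraries, were Plek and Clec5a for Cx3cr1 (distances 0.331 and 0.388), F9 and Mfng for Adgre1 (0.195 and 0.206), Arhgdig and Piwil2 for Siglec1 (0.309 and 0.365), Stard10 and Wwc2 for Id3 (0.809 and 0.992), and Dffb and Ganc for Nr1h3 (0.876 and 0.923). Such nearness reflects level and group pattern in 6 libraries only.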

How the data were processed

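Levels in 6 libraries, 3 per group, were measured by 3' messenger RNA sequencing (Lexogen QuantSeq from Trizol RNA, single-end, 75 cycles, per the labels' protocols and the series' design text). The authors deposited raw read counts per gene symbol, 1 file per library. Bowtie2, bedtools and the build mm10 are named, with no role, per the submitters' processing notes. Their versions and settings, the annotation, strand use and duplicate handling were not given in the sources used here.

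CPM is the count per 1000000 of the library's total. Counts were filtered with filterByExpr, scaled by TMM factors (0.965 to 1.04) and tested with edgeR 4.0.16 (R 4.3.3) by the quasi-likelihood test with robust dispersions and group as the only term, two-sided, with Benjamini-Hochberg adjustment over 12088 genes. A gene passed at an adjusted p under 0.05. Log2 fold changes are TXNIP overexpressed minus vector control; the standard error is the absolute log2 fold change over the root of F. Where a group had no read, the fold is a bound against 3 reads in that group, and fitted values stand only in the comparison of alternatives. Intervals and floors cover counting error only.

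The members and gene lists were chosen with earlier results of these data known. The rule for named genes took all members, their paralogs and ligands or partners, up to 4 genes of each list with the highest mean CPM, and the 2 nearest profiles. Other genes named as examples were picked after their values were seen. Some listed genes are not reported here by name. Alternatives were RLE, upper-quartile or no scaling factors, other filters, DESeq2 1.42.0, limma-voom (limma 3.58.1), dispersions without robust estimation, a replicate block, each library left out and, added after seeing the data, both libraries numbered 1 left out. No library pair within a group agreed within sampling noise. Plots used matplotlib 3.10.9.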

Additional observations from a re-analysis of the deposited data

How the results depend on the processing

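The count of genes past the threshold (7796) stayed within 1.5 times under all 16 alternatives, from 6824 with a filter of 5 CPM in 3 libraries to 8491 without both libraries numbered 1, and from 7201 to 7870 with any library left out. Adgre1, Cx3cr1 and Id3 kept their direction and stayed past the threshold under all 16, and Siglec1 under the 15 that tested it, with adjusted p of at most 4.99e-06, 1.13e-08, 1.72e-07 and 0.00117. The fitted values of Adgre1 (8.93 with limma-voom, against 10.81) and Siglec1 (6.25 with limma-voom, against 8.18) depend on the prior count, since the controls had no read. Nr1h3 kept its direction but crossed the threshold with 1 library left out, where its log2 fold change ran from 0.37 to 1.47; adjusted p ran from 0.0254 to 0.497 over the 16 alternatives. With the replicate number as a replicate block, 7767 genes passed, and the log2 fold changes were 10.80 for Adgre1, 11.47 for Cx3cr1, 8.25 for Siglec1, -4.87 for Id3 and 0.95 for Nr1h3 (adjusted p = 0.0738), so that no member's call changed. Of the other genes named, Adgrl1 passed with the block (adjusted p = 0.0490) and Acta2 no longer did (0.0929). Among other genes named, 1 library with most of the few reads of a group moved the log2 fold change while the call held: it was -6.35 for Pparg without replicate 2 labelled TXNIP overexpression (-4.60 with it), -10.09 for Gata6 (-7.80) and -9.91 for Hes1 (-9.02) without replicate 1 of that group, and 13.96 for Ptprc (9.97), 8.77 for Cd74 (7.79) and 11.21 for Cd68 (10.51) without control replicate 1. Without control replicate 3 it was 8.27 for Irf7 (7.20), 7.67 for Xlr (6.85) and 4.92 for Mylip (4.09). Deviations of same-numbered libraries correlated at 0.0980, 0.0422 and 0.0522 over genes, and those of differently numbered libraries at -0.0695 to 0.0438. These values do not settle whether the numbers pair the samples. The labels state no pairing, so group stayed the only term. Under library size alone the median log2 fold change of all genes was -0.11, against -0.04. Depth limits the 5 members without reads to under 0.0438 CPM over all libraries by the limit of 3 reads, and lets no lower level be told from absence.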

Other observations

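Genes with scavenger receptor cysteine-rich domains, the family of Cd163, were uneven between the groups. Msr1, the class A scavenger receptor gene that binds modified lipoproteins, had no control read, against 628, 489 and 489.8 CPM in the TXNIP group, at least 6702-fold higher (edgeR adjusted p = 1.63e-10). Of 13 genes listed, 5 were tested, of which 3 rose and 2 fell. Among those that fell was Scara3, a scavenger receptor gene listed though it lacks this domain, which had no read in the TXNIP group. Loxl3 rose from 86.5 ± 20.3 to 169 ± 2.19 CPM, while its relative Loxl2, a collagen cross-linking enzyme gene, fell from 159 ± 2.14 to 3.45 ± 1.02 CPM. Cd163l1, Marco, Scara5 and Dmbt1 had no read in any library.

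Antigen presentation genes of dendritic cells were uneven in the same libraries. Cd74, the invariant chain gene, rose from 0.261 ± 0.288 to 47.7 ± 6.88 CPM, yet H2-Aa had 16, 9 and 10 reads and H2-Ab1 0, 2 and 3 reads, with none of either in the controls. Itgax, the CD11c gene, had no control read and 3.09, 4.81 and 8.32 CPM, and Flt3, Clec9a, Cd209a and Ccr7 had no read.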
